A study of Homo sapiens with 20 samples.

Results

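The 232 regions described here are the places in the human genome at which HIF1A was called bound in hypoxia in each of 4 cancer cell lines. They were selected on the hypoxia peak calls. Hypoxia peaks that overlapped by 1 bp or more, in any of the 4 lists, were joined, and a joined region was kept when each line had a peak in it. There were 19628 joined regions in all, with 448 called in 3 lines, 1231 in 2 lines and 17717 in 1 line. Every common region held exactly 1 peak of each line. Hypoxia tag counts decide whether a peak is called, so they are a description and carry no test. The normoxia lists, the distance to a transcription start site (TSS) and the DNA sequence were not used in choosing them.

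The lines were HCT116 (colorectal carcinoma), RKO (colon carcinoma), A549 (lung adenocarcinoma) and H460 (large cell lung carcinoma), each kept in normoxia or exposed to hypoxia (1% oxygen for 24 h), with no other treatment named. HIF1A-bound chromatin was recovered with an antibody and sequenced (ChIP-seq) in 16 libraries, 2 replicates per line and condition, beside 1 input library per line that was labelled normoxia. The replicates of a group were merged before peak calling, so a region has 1 value per line and condition, no replicate error can be given, and tests were run over the 4 lines, where no p below 0.125 is possible. The merged libraries held 41.2 M to 81.5 M tags, and tag counts below are tags in a peak per 10 M tags of the library. Each line had its own required fold over input (14 in H460, 13 in A549, 7 in HCT116 and 6 in RKO), which the study set from the tags in peaks common to the lines. The description fields of the RKO and A549 inputs each name the other line, and the source field of all 4 inputs names HCT116. The titles, which the cell line tags and the headers of the peak lists match, were followed, and whether an input was exchanged, which would change each fold over input and its threshold, was not tested.

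HIF1A is the oxygen-sensitive subunit of a transcription factor. When oxygen is plentiful, prolyl hydroxylases such as EGLN1 modify HIF1A and the VHL protein then targets it for degradation, whereas in hypoxia it accumulates, pairs with ARNT and binds the hypoxia response element. The core of this element is RCGTG, where R is A or G. Its known targets include the enzymes of glycolysis, exporters of lactate, regulators of mitochondria and the hydroxylases that limit HIF1A itself.

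The sequences around the core are shown first, because 227 of the 232 regions (97.8%, Wilson 95% interval 95.1 to 99.1) held RCGTG within the 200 bp at the centre of the HCT116 peak, against 43.9% of all hypoxia regions. The share was close to this in the regions called in 3 lines (422 of 448, 94.2%) and in 2 lines (87.1%). It was 38.9% in those called in 1 line. The 14 stretches below lie at regions that the results turn on, among them the strongest, the weakest and those near genes of glycolysis and oxygen sensing. Each is 29 bases of GRCh37 placed on the core nearest the HCT116 peak centre, read 5′ to 3′ on the strand that carries the core. Capitals mark RCGTG on that strand or its reverse complement.
SLC16A3, chr17:80188985-80189013, minus strand: gggACGTGggggACGTGaccgcgccatgg
RRP12 and PGAM1, chr10:99185766-99185794, plus strand: ctccGCGTGcttACGTGcgctccgtgact
PDK1, chr2:173420789-173420817, minus strand: ggtACGTGagggACGTGgcgggcagcagg
ENO1, chr1:8939061-8939089, plus strand: tggcccggggcgGCGTGgcgggcatgaga
LDHA, chr11:18416025-18416053, minus strand: gggggccggcggACGTGcgggaacccacg
PFKFB4, chr3:48594704-48594732, plus strand: gggacgaggcctACGTGacccgcacggcc
EGLN1, chr1:231558030-231558058, minus strand: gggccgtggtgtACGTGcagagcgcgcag
KDM3A, chr2:86667951-86667979, minus strand: gcagggaagagaACGTGcggtttcaggcg
ANKRD37, chr4:186317600-186317628, plus strand: cactaccgggagACGTGtcaaactcagcg
FAM162A, chr3:122102933-122102961, minus strand: gggGCGTGtaggACGTGcgcCACGCgctg
LONP1, chr19:5720190-5720218, plus strand: gccgcgaaacgCACGTGacgcccggcgcg
P4HA1, chr10:74856694-74856722, plus strand: gcagccctcgctACGTGagctcgatcaca
VEGFA, chr6:43739245-43739273, minus strand: tgggcagggcccGCGTGggcggtgagcct
UBXN4, chr2:136499142-136499170, plus strand: caggcgccgccgACGTGtcttagcggtta

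Most common regions were among the higher peaks of every list, and they spanned a wide range in each. The tag count ran from 2.94 to 92.4 in HCT116, with a median of 11.8. In RKO it ran from 2.84 to 73.5 (median 9.80), in A549 from 4.08 to 208.5 (median 23.0) and in H460 from 4.25 to 118.7 (median 27.0). The corresponding medians of regions called in 3 lines were 6.75, 5.98, 14.8 and 15.4, and those of regions called in 1 line were 2.82, 3.14, 3.65 and 5.46. Common regions made up 5.81%, 2.53%, 4.29% and 5.98% of the peaks of HCT116, RKO, A549 and H460, and held 20.9%, 9.04%, 17.9% and 18.6% of the tags in peaks. Of the 100 highest peaks of a list, common regions were 76 in HCT116 and 68 in RKO, and 60 in both lung lines. Not every member was a high peak: UBXN4 was the weakest in HCT116 and A549, PHKA2-AS1 in RKO and KPNA5 in H460. No input tag was found at 25, 17, 13 and 28 of the regions in the 4 lines, so the fold over input there has no measured denominator.

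**Figure D1:**
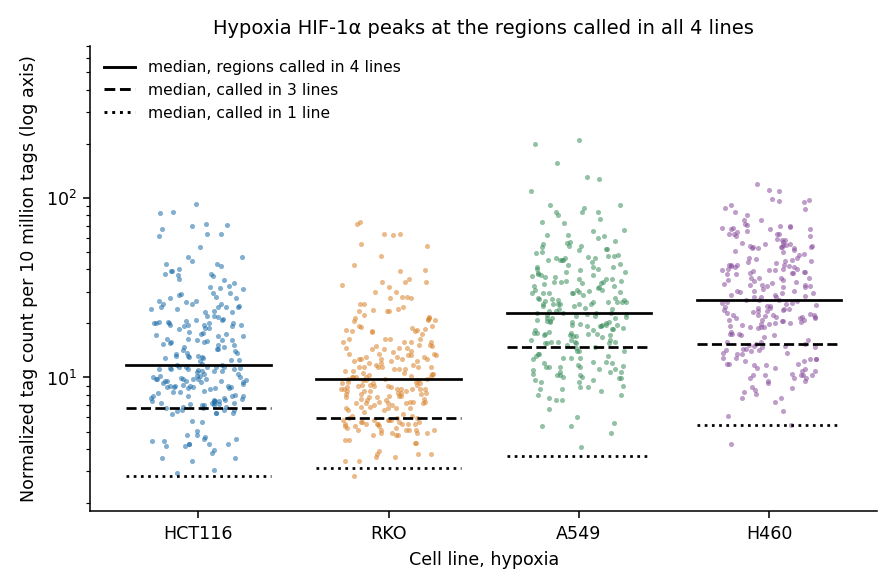
Normalized tag count per 10 M tags (log axis) of the HIF1A hypoxia peak at each of the 232 common regions (points) in each cell line, with medians for regions called in 4 lines (solid), 3 lines (dashed) and 1 line (dotted). The solid line lies above the dashed and the dotted line in all 4 lines, and the points reach from 2.84 in RKO to 208.5 in A549.

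Regions are named by the gene whose annotated transcript start lies nearest, and were ordered by the mean of their ranks in the 4 lists. The first was SLC16A3, which encodes the lactate exporter MCT4. It had 208.5 tags in A549 and 118.7 in H460, beside 61.1 in HCT116 and 55.5 in RKO, and its centre lay 1117 bp upstream of the nearest start. The region ranked second, at the start of RRP12 and within 2500 bp of a start of the glycolytic enzyme gene PGAM1, had 83.8, 61.7, 126.7 and 97.7 tags in HCT116, RKO, A549 and H460, the order used below. It was followed by FAM174B, NARF and a noncoding gene, ENSG00000267219, whose region lies 104 bp upstream of GPI, the gene of glucose-6-phosphate isomerase. PDK1, the gene of a pyruvate dehydrogenase kinase, came sixth with 69.4, 39.9, 83.5 and 110.4 tags. ENO1, ALDOA, BNIP3L and ENSG00000231881 completed the best 10. The last of these lies in the noncoding gene SCIRT on chromosome 6.

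Glycolysis was the most fully covered of the 15 gene lists examined. A common region lay within 2500 bp of a transcript start for 13 of 18 glycolytic enzyme genes (72.2%), against 298 of all 38820 protein-coding and lncRNA genes (0.768%). The lists were drawn up with earlier results known, so these counts are a description. The covered steps ran from hexokinase to lactate dehydrogenase: HK2, GPI, PFKP, PFKFB4, ALDOA, ALDOC, GAPDH, PGK1, PGAM1, ENO1, ENO2, PKM and LDHA. ENO1, an enolase, had 92.4, 42.2, 72.2 and 96.4 tags. LDHA, which turns pyruvate into lactate, had 47.0, 47.7, 90.8 and 58.6, and PFKFB4, which sets the level of an activator of phosphofructokinase, had 53.2, 35.3, 49.4 and 109.4. The platelet phosphofructokinase gene PFKP was far lower, at 7.85, 4.78, 10.3 and 12.7 tags. PFKP thus lay below the median of the common regions in every line, and the other 3 above it.

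GAPDH had 2 common regions, 682 bp apart. The one at its start had 19.6, 18.8, 45.3 and 26.7 tags in HCT116, RKO, A549 and H460, and the one upstream, at the divergent transcript GAPDH-DT, had 18.5, 12.4, 46.0 and 42.5. The remaining glycolytic genes were HK1, PFKL, PFKM, PFKFB3 and TPI1. PFKL, the liver phosphofructokinase, had hypoxia peaks in all 4 lines within 2500 bp of a start, but no joined region there held all 4 lines. TPI1, the triosephosphate isomerase gene, had peaks in 3 lines and lacked one in RKO, and PFKM had none.

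Genes that act around glycolysis were covered in part. Of 4 glucose and lactate transporters, only SLC16A3 had a common region within 2500 bp. The glucose transporter gene SLC2A1 had peaks in 4 lines, but no joined region there held all 4. Among 10 genes of the mitochondrial switch, PDK1 and LONP1 were covered, and LONP1, a mitochondrial protease, had 24.7, 14.6, 19.5 and 39.4 tags. BNIP3L and FAM162A, which encode mitochondrial proteins of mitophagy and cell death, were the covered members of a list of 7. BNIP3L had 63.2, 33.9, 108.7 and 86.7 tags and FAM162A had 34.8, 17.5, 53.7 and 61.1. Both lay above the median of the common regions in every line, while BNIP3, a relative of BNIP3L, was called in 3 lines and not in RKO.

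Among genes that use oxygen as a substrate or sense it, EGLN1 was the covered member of 11 HIF subunits and oxygen sensors. Its region, centred 5 bp from the start, had 40.4, 28, 46.0 and 62.7 tags in HCT116, RKO, A549 and H460. EGLN3, a related prolyl hydroxylase, had a peak within 2500 bp of a start in H460 alone, although a common region lay in an intron of a long EGLN3 transcript, near EGLN3-AS1. HIF1A itself had no peak within 2500 bp of a start in any line. A common region was present at HIF1A-AS3, 5580 bp downstream of the nearest coding HIF1A start, with 38.9, 15.1, 46.4 and 53.4 tags. HIF1A-AS3 and EGLN3-AS1 were named after their values were seen.

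Other dioxygenases were covered too. P4HA1 and P4HA2, the catalytic subunits of collagen prolyl hydroxylase, were the covered members of a list of 10, with 37.3, 30.0, 65.5 and 56.4 tags at P4HA1 and 20.5, 10.6, 30.7 and 27.9 at P4HA2. Of 17 listed histone and DNA demethylases, 4 had a common region. KDM3A, which removes methyl groups from histone H3 lysine residues, had 28.8, 34.1, 61.2 and 50.5 tags. KDM4B had 29.4, 21.2, 40.2 and 44.9, and KDM4C had 14.5, 8.67, 33.7 and 29.7. TET2, which oxidizes methylcytosine, was the lowest of these 4, at 6.99, 8.22, 12.7 and 23.5 tags. KDM1A, a demethylase gene outside the list, also had a common region, 93 bp upstream of its start.

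The lists of regulators were covered at lower shares than glycolysis. In the list of 14 MYC network and clock genes, MXI1 and BHLHE40 were covered (14.3%). MXI1, a MYC antagonist, had 22.1, 7.32, 20.4 and 58.8 tags, and BHLHE40, a clock repressor, had 17.0, 13.8, 26.2 and 42.1. BHLHE40 had another common region 7657 bp beyond the first, at BHLHE40-AS1, with 31.5, 11.4, 61.8 and 67.7 tags. DDIT4, an inhibitor of mTORC1, was the covered gene of 9 mTORC1 regulators (11.1%). It had 18.9, 12.6, 33.3 and 28.5 tags at its start, and a common region that was higher in all 4 lines, with 22.1, 21.5, 66.4 and 63.1 tags, lay 12849 bp upstream of it. TFRC, the transferrin receptor gene, was the covered gene of 8 in iron and heme handling, and its tag counts lay between 15.7 in A549 and 24.1 in H460.

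The angiogenic factor VEGFA stood near the bottom of the set. Its region was centred 291 bp downstream of a start and was ranked 226th of 232, with 4.42, 6.88, 4.94 and 6.47 tags. It was the covered gene among 12 secreted and angiogenic factors, and ANGPTL4 had peaks in 4 lines without a common region. The lists of 5 genes of pH regulation, 10 of glycogen metabolism and 8 of TGF-beta signalling had none, although 4, 9 and 2 of their genes had a hypoxia peak in 1 line or more. Among 8 noncoding RNA genes, MIR210HG, the host of miR-210, and SCIRT were covered. MIR210HG had 39.1, 18.4, 53.9 and 39.2 tags, and the SCIRT region had 67.3, 73.5, 83.1 and 54.4. Over all lists, 32 of 151 genes had a common region (21.2%) and 100 had such a peak in 1 line or more (66.2%, against 20.7% of all genes).

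The lines were then compared within the common regions. H460 had the highest tag count at 148 regions, A549 at 81, HCT116 at 2 and RKO at 1, and RKO had the lowest at 157 and HCT116 at 65. To set these overall levels aside, log2 tag counts were centred on the median of the 232 regions in each line. The standard deviation of the 4 centred values of a region had a median of 0.40, where counting of tags alone gives 0.16, and the region means had a standard deviation of 0.91 over the set. Spearman's rho between pairs of lines over the 232 regions lay between 0.72 and 0.82, a description over regions that share libraries. Within this set, the spread between regions was larger than that between lines of a region. The rule leaves out regions too low to be called in any 1 line, and its part in this was not tested. No replicate spread was available to set beside the differences between lines.

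At 45 regions a line lay over 2-fold from the mean of the other 3 lines, and at none over 4-fold. ASAP2, the gene of a GTPase-activating protein, had the highest excess, with 45.3 tags in A549 against 9.57 in HCT116, 3.89 in RKO and 21.8 in H460 (3.09-fold above the mean of the other centred lines, log2 1.63, counting standard error 0.15). It was followed in A549 by TSPAN14-AS1 (2.67-fold) and TADA2A (2.51-fold). In RKO the highest were VEGFA (2.62-fold), ADCK5 (2.36-fold) and NIBAN2 (2.34-fold). In H460 they were NOL3, an apoptosis repressor with 75.2 tags (2.49-fold), DHX37 (2.35-fold) and LNPK (2.26-fold). In HCT116 they were TSPAN5-DT (2.22-fold), ENO1 (2.15-fold) and ENSG00000260919 (2.09-fold).

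The furthest below the other lines was the HK2 region in A549. HK2, the gene of hexokinase 2, had 21.0 tags in HCT116, 19.4 in RKO and 39.8 in H460 but 10.1 in A549, which was 3.94-fold below the mean of the other centred lines (log2 -1.98, counting standard error 0.22). WRNIP1 was also low in A549 (2.59-fold below). ADCK5 (3.47-fold) and the SCIRT region (2.66-fold) were low in H460, CTDSP1 (3.21-fold) and ASAP2 (2.74-fold) in RKO, and ANG (2.52-fold) and ENSG00000289540 (2.27-fold) in HCT116. By the rule, each of these regions was still called in every line.

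**Figure D2:**
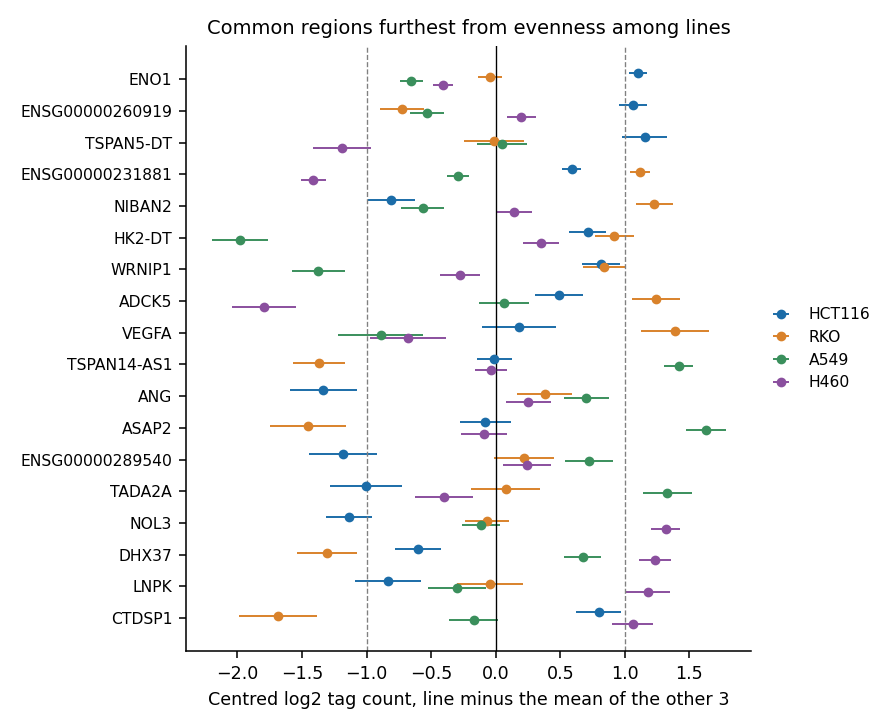
Centred log2 tag count of each line minus the mean of the other 3 lines (points) for the 18 common regions that stood furthest above or below in a line, with the counting standard error of the tags (bars) and dashed lines at a 2-fold difference. ASAP2 in A549 lies furthest to the right at 1.63, and the HK2 region (HK2-DT) in A549 furthest to the left at -1.98.

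The 4 peaks in a common region lay close together. Their centres were spread over a median of 29 bp, and over at most 50 bp at 195 regions. The stretch shared by all 4 peaks had a median of 118 bp. At P4HA2 the peaks were joined in a chain and no base was common to all 4, with centres 175 bp apart, and UBXN4 and LINC01714 shared only 11 and 13 bp. On the other side of the rule, the 448 regions called in 3 lines lacked RKO (152 regions), A549 (141), H460 (82) or HCT116 (73). In 4 of the 448 the missing line had a peak within 200 bp that overlapped none of the others. The highest regions that missed by 1 line were BNIP3, with 32.7, 59.3 and 96.0 tags in HCT116, A549 and H460, SLC8A3 and EGLN3, all without a call in RKO. GBE1, which encodes the glycogen branching enzyme, was joined in RKO, A549 and H460 (29.1, 52.6 and 48.9 tags), and the HCT116 peak there lay 489 bp away.

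Common regions were mostly promoter regions. The centre lay within 2500 bp of a gene-level TSS at 171 of 232 (73.7%, 67.7 to 79.0), against 26.9% of all hypoxia regions, 68.8% (64.3 to 72.9) of regions called in 3 lines and 22.8% (22.2 to 23.4) of regions called in 1 line. With every transcript start counted, the share was 85.3% (198 regions), beside 77.5% for 3 lines and 36.6% for all. The gap to single-line regions was 45.8 ± 12.5 percentage points (SD, n = 4 lines), in the same direction in each line (two-sided exact permutation by sign flips, p = 0.125). The gap to 3-line regions was 4.72 ± 6.17 points and was negative in RKO (-3.66), and was not distinguishable over lines (the same exact permutation, p = 0.25). This sign depended on the choice of start: with every transcript start the gap was 7.68 points and 0.21 in RKO, positive in 4 of 4 lines (exact permutation, p = 0.125). The same 232 places enter for every line in these comparisons, so the lines are not independent for position or sequence.

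Among the 198 regions near a start, the median distance was 67.5 bp. The centre lay within 100 bp of a start at 117 of the 232 (50.4%, 44.04 to 56.8), against 40.4% (36.0 to 45.0) for regions called in 3 lines and 10.9% for 1 line. It lay upstream of the start at 122 regions and at or downstream of it at 76. The nearest start belonged to a protein-coding gene at 177 of the 232 regions and to a lncRNA gene at 55. By GENCODE annotation, 75 centres were intergenic, 75 intronic, 52 in a UTR, 22 in a noncoding exon, 6 in a coding exon and 2 in a UTR or a coding exon depending on the transcript. Over the genome, 232 of 19628 hypoxia regions were common. The chromosomes named next were picked after their values were seen, and no difference between chromosomes was tested. Chromosome 1 held 27 of the regions (1.71% of its 1576 hypoxia regions) and chromosome 2 held 20 (1.45% of 1380). Chromosomes 13 and 20 held 1 each (0.301% of 332 and 0.147% of 678). On chromosome 22 the share was 2.68% (8 of 299).

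The other 34 regions lay over 2500 bp from any annotated start, 16 of them over 10000 bp and 3 over 50000 bp away. They were not weaker in every line: the median tag count of the 34 was 10.2 in HCT116 and 7.62 in RKO, beside 12.8 and 10.0 for the 198 near a start, and 26.1 in A549 and 31.2 in H460, beside 22.0 and 26.5. The first by mean rank was an intronic region of FBXO16 on chromosome 8 (chr8:28269519-28269667), with 44.6, 27.7, 87.8 and 66.7 tags in HCT116, RKO, A549 and H460. Its nearest start, 4517 bp away, was that of the noncoding gene ENSG00000286804. The nearest coding start, 9375 bp away, was that of ZNF395. An intergenic region 73672 bp upstream of NDRG1, a stress-response gene (chr8:134387863-134388011), had 47.0, 34.1, 80.3 and 49.9, and so was the higher of the pair in both colon lines and the lower in both lung lines. LINC01792, the region upstream of DDIT4 and SEMA4B, a semaphorin gene, followed in that order. The AP-1 site, TGACTCA or TGAGTCA on either strand, was found within 200 bp of centre sequence at 11 of the 34 (32.4%, 19.1 to 49.2) and at 13 of the 198 (6.57%, 3.88 to 10.9). In HCT116 the shares far from and near a start were 30.7% and 4.53% for regions called in 3 lines and 8.05% and 4.14% for regions called in 1 line. Far from starts in RKO, 38.2% of common and 36.4% of 3-line regions held it. The corresponding pairs were 32.4% and 35.6% for A549, and 35.3% and 37.3% for H460. The share at common regions was thus the higher in both colon lines and the lower in both lung lines, and each 3-line share lay inside the interval of the common one.

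The cores were next divided by their first base. ACGTG, read on either strand within 200 bp of centre sequence, was present at 213 of 232 common regions in HCT116 (91.8%, 87.6 to 94.7), against 28.3% of all hypoxia regions, 74.1% (69.5 to 78.3) of its 3-line regions and 27.6% (26.001 to 29.3) of its single-line regions. Flanking windows of the same size, 2000 bp away on each side, held it in 9.70%. RKO, A549 and H460 gave 91.4%, 92.2% and 91.4%. The excess of common over 3-line regions was 15.9 ± 2.25 percentage points (SD, n = 4 lines), and was positive in 4 of 4 lines (two-sided exact permutation by sign flips, p = 0.125). GCGTG was present at 48.7% of common regions in HCT116, against 25.1% of all hypoxia regions, 57.6% of its 3-line regions and 36.4% of its single-line regions. It was higher at common than at single-line regions by 20.2 ± 11.5 points, in 4 of 4 lines, and lower than at 3-line regions, with a difference of -9.85 ± 3.02 points that was negative in 4 of 4 lines (the same exact test, p = 0.125 for both). Regions with GCGTG and no ACGTG were 14 of 232 (6.03%), against 86 of 448 (19.2%) called in 3 lines. RCGAG has A in place of the T of the core. In HCT116 it was present at 61.2% of common, 55.7% of 3-line and 37.9% of single-line regions. The median GC content was 67.25%, 65% and 47.5% for regions called in 4 lines, 3 lines and 1 line. The part of GC content in these shares was not tested.

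The base before ACGTG also differed. TACGTG, which is contained in the ACGTG counts, was present at 44.4% (38.1 to 50.8) of common regions in HCT116, against 28.3% (23.9 to 33.0) of 3-line and 5.88% of single-line regions, and the difference from 3-line regions was 13.9 ± 3.797 points over the lines (exact sign flips, two-sided, p = 0.125). The palindrome CACGTG, in which both strands carry the core, was present at 12.5% of common and 14.1% of 3-line regions. Of the 324 ACGTG sites at common regions, 36.1% were preceded by G, 34.6% by T, 20.4% by C and 8.95% by A. The strength of peaks moved with these shares. Among peaks at or above the median of the common regions in their line, the ACGTG excess over 3-line regions was 6.86 points and was -3.09 in RKO (p = 0.25), the TACGTG excess was 1.63 points (p = 0.625), and the GCGTG difference was -13.8 points in 4 of 4 lines (p = 0.125), all by the same two-sided exact test. Against all other regions GCGTG was 15.7 points higher at common regions in 4 of 4 lines (exact p = 0.125), and among these higher peaks it was lower by a mean of -6.78 points, in 3 of 4 lines (exact p = 0.375).

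**Figure D3:**
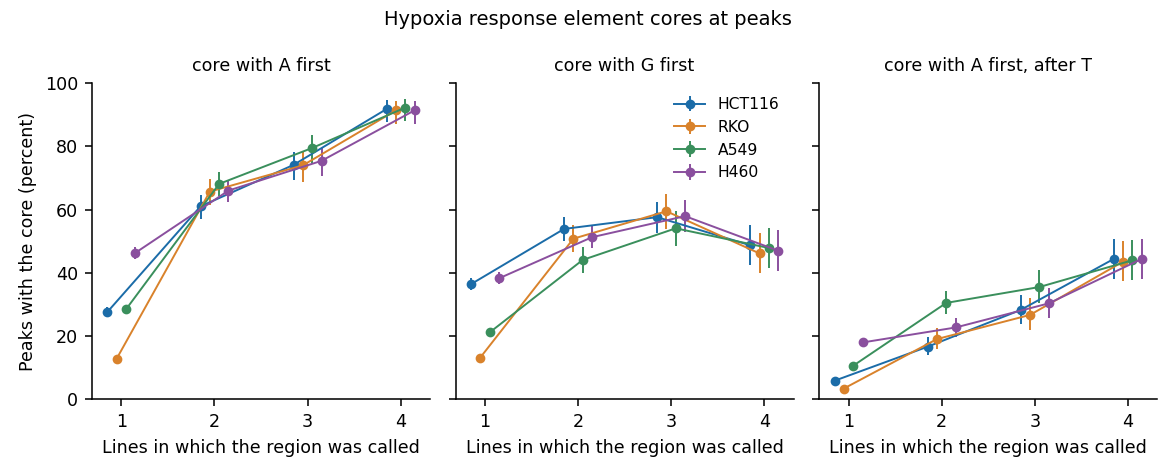
Percent of peaks with a hypoxia response element core within 200 bp of centre sequence, by the number of lines in which the region was called, for each cell line (points with Wilson 95% intervals): ACGTG (left), GCGTG (middle) and TACGTG (right). ACGTG and TACGTG climb from 1 to 4 lines in every cell line, to 91.8% and 44.4% in HCT116, whereas GCGTG is lower at 4 than at 3 lines and higher than at 1 line.

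The core nearest to the peak centre lay a median of 11 bp from it, beside 13 bp for regions called in 3 lines and 25 bp for 1 line. Most common regions had several cores: 146 of 232 (62.9%) had at least 2, against 60.5% of 3-line and 15.9% of single-line regions. ENSG00000267219, at GPI, and LINC02268 had the most, with 9 each. All 5 regions without RCGTG in the HCT116 window also lacked it in the other lines. These were C4orf3, MYL6B, TTC21B, ENSG00000259755 and TADA2A, of which C4orf3 was a high peak with 37.8, 19, 33.9 and 69.2 tags. Among the 10 best regions, the printed stretches of SLC16A3 and PDK1 each hold a pair of ACGTG cores on one strand, and that of ENO1 holds GCGTG nearest the centre, as does that of the weak VEGFA region.

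Finally, the normoxia lists were searched at the common regions. Of the 232, 57 (24.6%) had a normoxia peak in at least 1 line and 175 had none. A common region was set against 4 normoxia lists and a single-line region against 1, so this share has no like value over all regions. By line, the number of common regions with a normoxia peak was 43 in A549 (18.5%, 14.1 to 24.0), against 3.24% of all its hypoxia regions. It was 12 in RKO (5.17%, 2.98 to 8.82, against 1.07%), 12 in H460 (5.17%, 2.98 to 8.82, against 1.16%) and 9 in HCT116 (3.88%, 2.05 to 7.21, against 0.926%). Common regions exceeded the other hypoxia regions of the line by 6.90 ± 6.08 percentage points (SD, n = 4 lines) and 3-line regions by 4.76 ± 3.21 points, in 4 of 4 lines (two-sided exact permutation by sign flips, p = 0.125 for both). Without A549 the first of these was 3.87 points. Peak height moved with the normoxia calls: the common regions called in normoxia had median hypoxia tag counts of 39.1, 17.5, 41 and 53.8, against 11.5, 9.57, 21.7 and 26 for those not called. Among peaks at or above the median tag count of the common regions, the excess over other regions was 0.107 points, and in RKO it was -8.91 (exact p = 1).

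**Figure D4:**
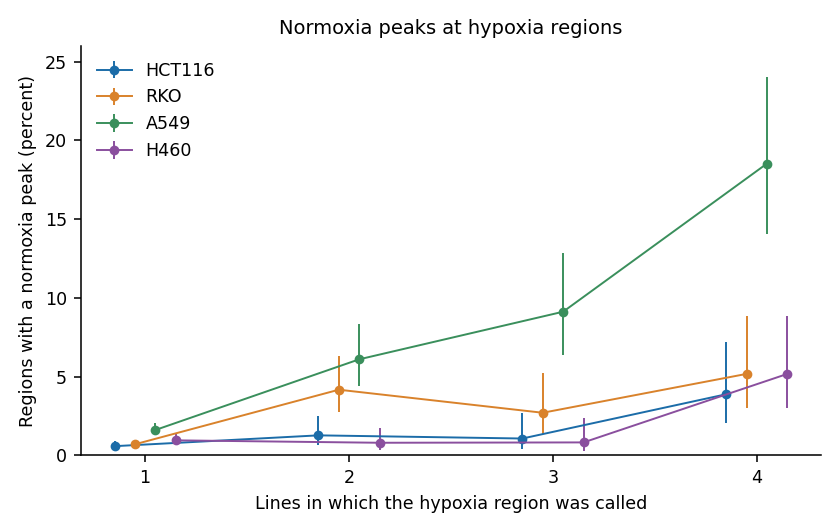
Percent of hypoxia regions with a normoxia peak of the same line, by the number of lines in which the hypoxia region was called (points with Wilson 95% intervals, 1 colour per line). A549 stands above the other lines at common regions with 18.5%, where the others lie between 3.88% and 5.17%.

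FAM174B and ANKRD37 were the common regions called in normoxia in all 4 lines. ANKRD37, an ankyrin-repeat gene known as a HIF1A target, had 19.7, 15.7, 19.6 and 13.5 tags in normoxia in HCT116, RKO, A549 and H460, and 62.9, 62.6, 47.9 and 63.1 in hypoxia. FAM174B had 32.1, 30.8, 75.4 and 24.4 in normoxia and 70.4, 71.3, 130.3 and 91.2 in hypoxia. Hypoxia was higher in each line for both. NARF was called in normoxia in HCT116, RKO and A549, and PNRC1 in HCT116, A549 and H460, and a further 9 regions in 2 lines and 44 in 1 line. Of those 44, 32 were called in A549 alone. They included LDHA, with 20.4 tags in normoxia and 90.8 in hypoxia, P4HA1 with 15.5 and 65.5, EGLN1 with 14.3 and 46.0, and BNIP3L with 28.4 and 108.7. PGK1 was called in normoxia in RKO alone, with 12.6 and 20.5 tags.

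Where a common region had a peak in both conditions, the hypoxia peak was the higher in 75 of 76 pairs. The hypoxia tag count helped to choose the regions, so these ratios are a description. The intervals given with them rest on the order of values over regions of merged libraries. They describe spread over regions and do not measure the error of a difference between conditions. Hypoxia exceeded normoxia by a median log2 ratio of 2.38 (95% interval of the median 1.13 to 3.07) over 9 regions in HCT116, 1.02 (0.73 to 1.99) over 12 in RKO, 1.94 (1.55 to 2.08) over 43 in A549 and 3.49 (2.31 to 4.22) over 12 in H460. The other regions with both peaks had 0.54, 0.17, 1.02 and 1.26. ENO1 in H460 had the widest gap, with 3.57 tags in normoxia and 96.4 in hypoxia (27.1-fold), and SLC16A3 in H460 had 6.38 and 118.7 (18.6-fold). The lower ratios were at UNC5B in RKO, with 6.43 and 5.08 tags, and at TFRC in A549, with 13.1 and 15.7. Peak width differed between the lists of a line, and per bp of width the median log2 ratio in RKO was 0.79.

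**Figure D5:**
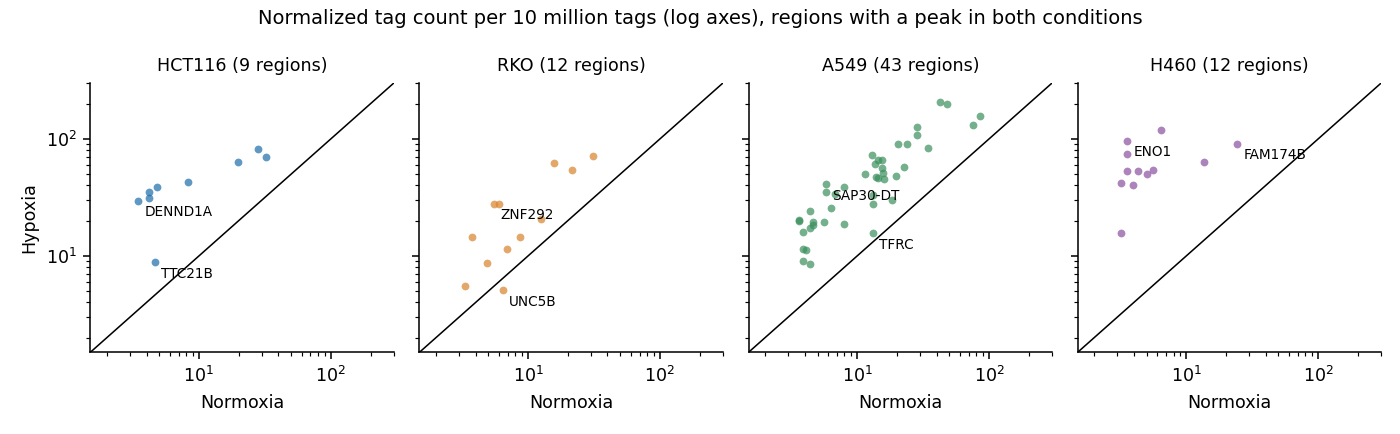
Normalized tag count per 10 M tags in hypoxia against normoxia (log axes) at common regions with a peak in both conditions, 1 panel per cell line, with the line of equality. All points but UNC5B in RKO (6.43 in normoxia, 5.08 in hypoxia) lie above the line, and ENO1 in H460 (3.57 and 96.4) lies furthest from it.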

How the data were processed

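Per the file headers and the methods, the authors aligned reads to GRCh37 with Bowtie2 2.2.9, kept a mapping quality above 10, marked duplicates, merged 2 replicates per group and called peaks with HOMER 4.3 against the input of the line (local fold 3, p 0.001, false discovery rate 0.001). The deposited signal is the normalized tag count per 10 M tags. The deposited fold ratio over input, fold over the local region and input tags were used to filter and describe peaks. Whole tags were recovered from the normalized count and the header total, and their sum equalled the header value in all 8 lists. Joining, tests and the search for cores used Python 3.11.15, numpy 2.4.6, scipy 1.17.1 and pandas 2.3.3, tested on simulated data. TSS and places came from GENCODE 44 mapped to GRCh37, over 38820 genes. Coordinates are as deposited, from the HCT116 peak.

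The regions and gene lists were chosen with earlier results of these data known. Named regions were the 10 best and 3 worst by mean rank, the 5 best over 2500 bp from a start, those with a normoxia peak in 3 or more lines, the 3 highest and 2 lowest of each line relative to the others, and those within 2500 bp of a listed gene. Other named regions were chosen after their values were seen. Groups came from sample titles. Wilson intervals are at 95% and cover counting error only. A planned binomial test of tags per peak between hypoxia and normoxia is not reported, because hypoxia tags helped to choose the regions. Nothing was computed from single replicates, which were not analysed here. Alternatives were other joining rules, stricter thresholds, other windows and leaving out a line.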

Additional observations from a re-analysis of the deposited data

Results flagged for a closer look

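Of 13 measures set side by side over the 4 lines, 1 line stood apart from the rest by Dixon's ratio at the 95% level, which chance gives in about 5% of groups. This was the share of common regions with a normoxia peak in A549 (18.5%), where the other lines lay between 3.88% and 5.17%. The same line had 3.24% for all of its hypoxia regions, beside 0.926% to 1.16% in the other lines. Its normoxia library was the shallowest of the 8 merged libraries (41.2 M tags) and its required fold over input was 13, and their part in the share was not tested.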

How the results depend on the processing

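No paired analysis was possible because the peak lists were called on merged replicates. Requiring 14-fold over input in all lists left 87 common regions, with a normoxia peak at 25.3% in A549 and 9.20% in H460, and 20 listed genes with a common region. Other joining rules, a local fold of at least 6 and a floor of 5 tags kept between 199 and 230 regions. Of 59 named regions, 31 remained in all 4 lines at a fold of 14, 52 at a local fold of 6 and 48 at a floor of 5 tags. VEGFA dropped to 2 lines under both of the last, PFKP to 3 under all of these, and DDIT4 to 3 at a local fold of 6 or a fold of 14. Several regions that differed most between lines also dropped. ASAP2 and TADA2A fell to 2 lines at a fold of 14 and to 3 under the other thresholds. ANG, ENSG00000289540, LNPK and CTDSP1 fell to 3 at the floor of 5 tags, and the HK2 region to 3 at a fold of 14. ENO1, WRNIP1 and the SCIRT region kept all 4 lines. P4HA2 and UBXN4 were lost under both other joining rules. The TSS share was 65.9% within 1000 bp and 85.3% with every transcript start. Windows of 100 bp gave 93.97% for RCGTG, 86.2% for ACGTG and 34.9% for GCGTG. The GCGTG excess over all other regions reversed among high peaks, to -6.78 points, where the normoxia excess fell to 0.107. The differences from 3-line regions (TSS, cores, normoxia) and from single-line regions (TSS, GCGTG) kept their average direction in each alternative run for them and without any 1 line. The comparisons on high peaks, listed genes, TACGTG, AP-1 (23.5% far from starts in 100 bp windows), GCGTG against other and single-line regions, TSS against single-line and normoxia against 3-line regions were added after seeing the data. Intervals rest on regions and merged libraries, and weak peaks hold as few as 11 tags.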

Other observations

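Further common regions with high tag counts lay near genes outside the lists and were picked after their values were seen. In HCT116, RKO, A549 and H460, the region 50 bp upstream of HILPDA, which encodes a lipid droplet protein, had 27.8, 19.3, 52.0 and 69.6 tags per 10 M tags. AK4, a mitochondrial adenylate kinase gene, had 35.2, 18.7, 34.4 and 67.1, and its normoxia peak in HCT116 had 4.19. FUT11, a fucosyltransferase gene bound in a coding exon, had 25.5, 16.4, 42.3 and 62.5. ALKBH5, which encodes an RNA demethylase of the same dioxygenase family as the histone demethylases, had 28.1, 14.6, 73.0 and 42.3 at its start. VKORC1, the vitamin K epoxide reductase gene, had 23.4, 24.1, 46.8 and 57.0. SCD, a fatty acid desaturase gene, had 15.6, 8.07, 20.4 and 55.6 at a region 722 bp upstream. H460 was the highest line at each of these but ALKBH5, where A549 was. Without centring on the line medians, H460 was also the highest at 148 of all 232 common regions.

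Some regions far from starts were uneven between the lines, in tag counts that were not centred on the line medians. The region 29256 bp upstream of BIRC3, an apoptosis inhibitor gene, had 9.94 tags in HCT116 and 4.93 in RKO, beside 44.9 in A549 and 39.8 in H460. MYL4, 9920 bp from its start, had 26.4, 13, 76.7 and 94.6. EDN2, an endothelin gene with a region 11730 bp upstream, had 18.9, 10.5, 17.8 and 16.8, without centring highest in HCT116 and lowest in RKO. The medians of the common regions were 11.8, 9.80, 23.0 and 27.0. EDN2 thus lay above the median in both colon lines and below it in both lung lines. The overall medians were also higher in both lung lines, and with 2 lines per tissue no difference by tissue was tested.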
